A study of Mus musculus with 7 samples.

Results

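Fc receptors and the adaptors that carry their signals were followed in Langerhans cells (LC), the dendritic cells of the epidermis. The 9 genes were Fcgr1, Fcgr2b, Fcgr3 and Fcgr4, the adaptor genes Fcer1g and Tyrobp, the kinase gene Syk, and the paired receptor genes Pilra and Trem2. They were selected by name, with the difference between irradiated and control LC on these arrays already known, from 21755 gene symbols. That difference is therefore given as a description of each gene, with no test. In the deposited annotation 8 of them stood under the current symbol and 1, Syk, under its older symbol Sykb, which the RefSeq gene table lists as a synonym. Each had 1 probe set, and all 9 passed the filter on dim genes described with the processing, Fcgr4 through its controls alone.

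The irradiated group was LC of adult wild-type C57:Bl6 mice exposed to 12 Gy of ionising radiation (3 samples), and the control group was LC of naive mice of the same strain and genotype (4 samples). Cells were sorted by flow cytometry and pooled to reach the number needed for an array. The time between exposure and sorting is not stated in the labels, and no label says whether replicates were taken from different mice. The labels of control replicates 1 and 4 each cite an earlier record.

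Receptors for the constant part of IgG let phagocytes and dendritic cells take up antibody-coated particles. The activating receptors depend on an adaptor, the common gamma chain encoded by Fcer1g, whose tail holds an immunoreceptor tyrosine-based activation motif (ITAM). Tyrobp encodes a second ITAM adaptor that serves Trem2 and other receptors. Phosphorylated ITAMs recruit the kinase Syk. Receptors with an inhibitory tail motif (ITIM), such as those encoded by Fcgr2b and Pilra, recruit phosphatases that restrain this signal.

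The library labelled irradiated replicate 1 stood apart from the other 6 and touches every result that follows. Its correlations with the others across the 13053 genes tested were 0.650 to 0.728, and those among the other 6 were 0.858 or higher. In it H2-Aa, an MHC class II gene of LC, was at 6.52 log2, against 13.27 in irradiated replicates 2 and 3 and 12.98 to 13.10 in controls. Cd207, the gene of langerin, was at 5.64, 12.35 and 11.86 log2 in irradiated replicates 1 to 3, against 11.49, 10.96, 8.85 and 8.91 log2 in control replicates 1 to 4. The sum of 8 LC marker intensities was 1867, 36646.3 and 38076.1 in irradiated replicates 1 to 3 and lay between 25125.4 and 34632.6 in controls. Single markers did not all follow the sum. In irradiated replicates 2 and 3 Itgax was at 8.93 and 9.33 log2, against 10.17 to 10.34 log2 in controls. Epcam was at 8.87 and 8.77 log2 there, against 8.74 to 9.76 log2 in controls. Of the 8 markers 0 passed the limma test with all arrays, and 1 was lower without irradiated replicate 1. The sum of 7 fibroblast marker intensities was 22748.7, 4185 and 1052.2 in irradiated replicates 1 to 3, against 1599.7 to 7470.4 in controls. Xist, the RNA of the inactive X chromosome, was at 5.31 to 5.93 log2 in irradiated samples and 10.94 to 11.71 log2 in controls, so radiation and the sex of the mice cannot be told apart. None of the 9 genes lies on a sex chromosome. In bulk samples, fewer cells of a type and less RNA per cell cannot be told apart.

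Pilra, the inhibitory paired receptor gene, had the largest difference of the 9 genes. Its level was 6.17, 6.49 and 5.84 log2 in irradiated replicates 1 to 3, against 8.51, 8.97, 9.56 and 9.74 log2 in control replicates 1 to 4. All irradiated samples lay below all controls, with a gap of 2.02 log2 between the highest irradiated and the lowest control sample. The mean was 6.17 ± 0.32 (SD, n = 3) in irradiated LC and 9.19 ± 0.56 (SD, n = 4) in control LC, a log2 difference of -3.03 (SE 0.33). Control LC thus had 8.16 times the irradiated signal. Without irradiated replicate 1 the difference was -3.03 (SE 0.38), and with any other array left out it lay between -3.26 and -2.85. Irradiated replicate 3 was below the limit for dim genes, 6.07 log2, a filter on means over all arrays and not a measured detection limit.

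For the 4 Fc receptor genes and Trem2, described next, the groups overlapped. For Fcgr1, Fcgr4, Trem2 and Pilra the RefSeq promoter windows (build GRCm38.p6) are printed here because the first 3 of these genes had the widest spread among the controls, and Pilra had the largest difference between groups. Each window runs from 250 bases before the annotated start to 50 bases after it. Capitals mark GAGGAA, the core of sites bound by the myeloid factor PU.1, read on either strand (TTCCTC on the other), and TTCNNNGAA, the core of sites bound by STAT factors. Where both occur in 1 window they do not overlap.

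Fcgr1, chr3:96293920-96294219, minus strand: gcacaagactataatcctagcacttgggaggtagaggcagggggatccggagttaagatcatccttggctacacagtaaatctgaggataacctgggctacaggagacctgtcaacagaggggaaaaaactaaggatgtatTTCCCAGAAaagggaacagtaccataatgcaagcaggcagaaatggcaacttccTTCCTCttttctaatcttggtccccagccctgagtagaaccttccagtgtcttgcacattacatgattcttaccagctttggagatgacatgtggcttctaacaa

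Fcgr4, chr1:171018676-171018975, plus strand: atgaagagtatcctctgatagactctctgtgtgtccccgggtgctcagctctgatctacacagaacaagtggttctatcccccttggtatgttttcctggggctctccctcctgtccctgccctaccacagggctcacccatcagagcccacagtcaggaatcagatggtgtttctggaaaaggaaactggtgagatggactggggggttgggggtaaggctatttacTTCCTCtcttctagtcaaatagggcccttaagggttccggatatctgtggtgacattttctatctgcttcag

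Trem2, chr17:48346151-48346450, plus strand: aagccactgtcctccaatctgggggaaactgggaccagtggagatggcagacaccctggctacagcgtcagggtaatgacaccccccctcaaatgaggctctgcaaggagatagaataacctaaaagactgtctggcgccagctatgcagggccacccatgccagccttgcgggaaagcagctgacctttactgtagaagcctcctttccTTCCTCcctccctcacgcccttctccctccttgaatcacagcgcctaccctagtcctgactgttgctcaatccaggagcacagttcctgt

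Pilra, chr5:137836229-137836528, minus strand: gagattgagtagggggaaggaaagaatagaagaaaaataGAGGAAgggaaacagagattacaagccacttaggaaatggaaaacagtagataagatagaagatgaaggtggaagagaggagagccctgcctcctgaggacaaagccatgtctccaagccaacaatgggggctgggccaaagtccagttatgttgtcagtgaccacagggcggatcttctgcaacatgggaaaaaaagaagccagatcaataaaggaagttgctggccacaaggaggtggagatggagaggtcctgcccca

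RefSeq promoter windows were matched for 8 of the 9 genes (Tyrobp was not matched), 10 windows in all. GAGGAA was present for 6 of these 8 genes, namely Fcgr1, Fcgr3, Fcgr4, Syk (at 1 of its 2 start sites), Pilra and Trem2. In Fcgr1, Fcgr4 and Trem2 it began at positions -55, -22 and -40 relative to the start, and in Pilra at -211. TTCNNNGAA was present for Fcgr1 alone among the 8. Of all 32851 RefSeq windows of the same length, 28.3% held GAGGAA and 8.30% held TTCNNNGAA. These shares are per window, while the counts above are per gene, and Fcgr3 and Syk had 2 windows each. These matches describe letters in a window and are no evidence of binding.

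Fcgr1 encodes the high-affinity IgG receptor. Its level was 6.56, 7.26 and 6.87 log2 in irradiated replicates 1 to 3, against 6.37, 7.30, 9.11 and 8.85 log2 in control replicates 1 to 4. All irradiated samples lay inside the range of the controls, close to control replicates 1 and 2 and well below control replicates 3 and 4. Irradiated minus control was -1.01 log2 (SE 0.64), and -0.84 (SE 0.74) without irradiated replicate 1.

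Fcgr4, an activating receptor that pairs with the gamma chain, was also highest in control replicates 3 and 4. Its level was 4.51, 5.65 and 5.06 log2 in irradiated replicates 1 to 3, against 5.12, 6.77, 8.66 and 8.02 log2 in control replicates 1 to 4. The irradiated samples were low, and the groups overlapped because of control replicate 1, which lay below irradiated replicate 2. The log2 difference was -2.07 (SE 0.78), and -1.79 (SE 0.89) without irradiated replicate 1. All irradiated values and that of control replicate 1 were below the limit for dim genes.

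Fcgr3, the low-affinity activating receptor gene, was at 7.37, 8.84 and 9.24 log2 in irradiated replicates 1 to 3, against 8.47, 8.92, 10.53 and 10.20 log2 in control replicates 1 to 4. Irradiated replicate 1 lay below every control, and irradiated replicates 2 and 3 lay among the controls. The groups differed by -1.05 log2 (SE 0.63) with all arrays and -0.49 (SE 0.58) without irradiated replicate 1.

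Trem2 encodes a receptor for lipids and lipoproteins that signals through Tyrobp. Its level was 7.57, 8.16 and 8.02 log2 in irradiated replicates 1 to 3, against 7.34, 8.36, 9.74 and 9.67 log2 in control replicates 1 to 4. As with Fcgr1, all irradiated samples lay within the control range. The log2 difference was -0.86 (SE 0.58), and -0.69 (SE 0.66) without irradiated replicate 1.

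Fcgr2b, the inhibitory Fc receptor gene, showed no such spread among controls. Its level was 7.53, 11.27 and 11.51 log2 in irradiated replicates 1 to 3, against 11.41, 11.22, 11.68 and 11.70 log2 in control replicates 1 to 4. Irradiated replicate 1 minus the lowest control was -3.69 log2, while irradiated replicates 2 and 3 lay within the controls. The log2 difference of -1.40 (SE 0.88) was -0.11 (SE 0.19) without that library. Of the 9 genes this was the smallest difference without it. Fcgr2b, Fcgr3 and Fcgr4 lie near each other on chromosome 1 and are related in sequence, so their probe sets could share signal, which was not tested.

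**Figure D1:**
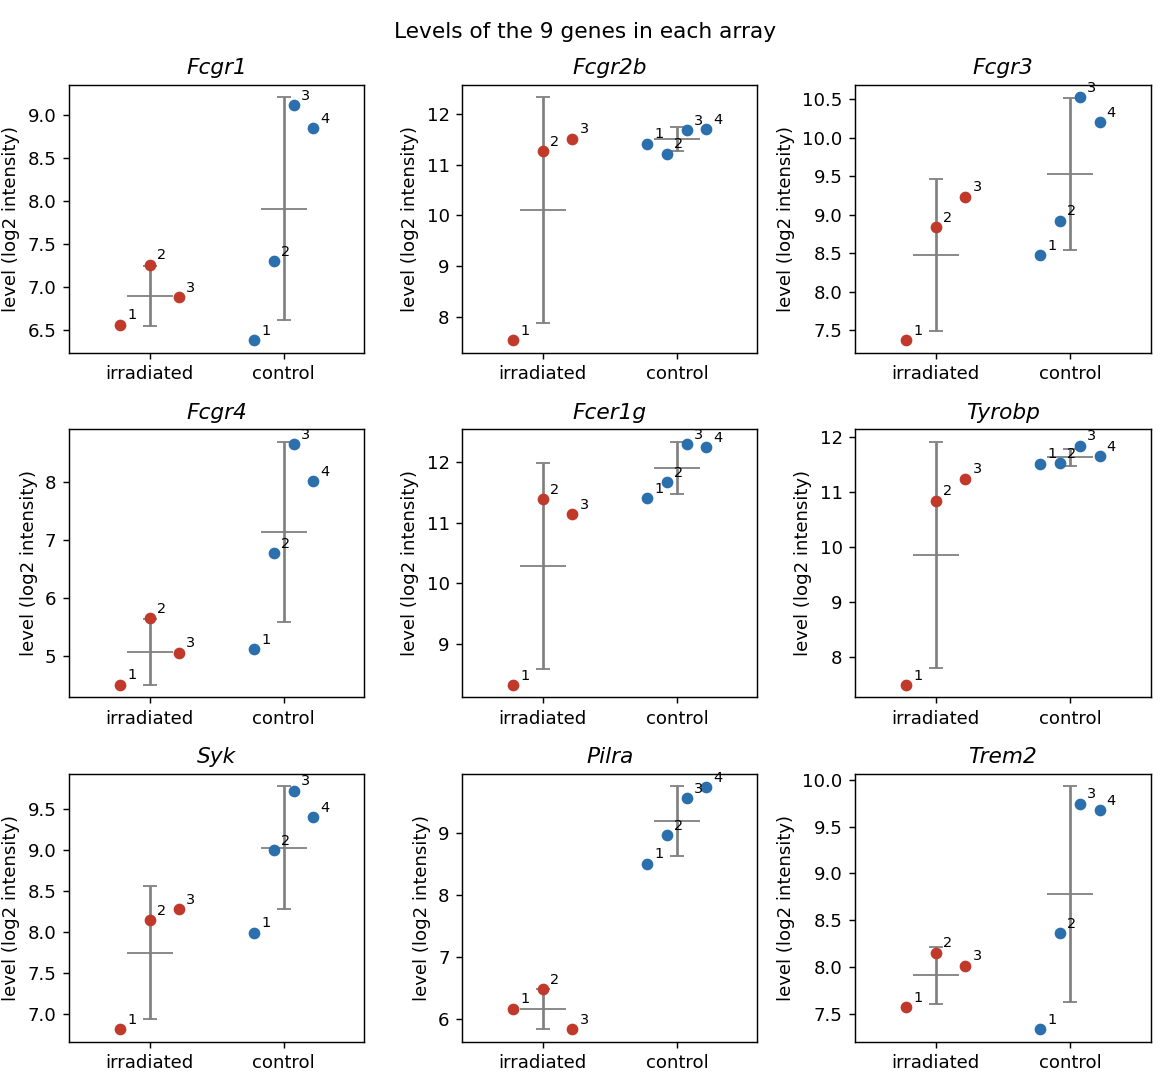
Levels of the 9 genes (log2 intensity, vertical axes with their own ranges) in irradiated (red) and control (blue) arrays. Points are arrays marked with the replicate number, and bars are the mean and SD of the group (n = 3 and 4). Irradiated and control samples are separated by 2.02 log2 for Pilra, and irradiated replicate 1 is far below the rest for Fcgr2b, Fcer1g and Tyrobp.

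The spread of these receptors among the controls was wide. The SD over the 4 controls was 1.56 log2 for Fcgr4, 1.30 for Fcgr1, 1.15 for Trem2 and 0.99 for Fcgr3, larger than the control SD of 99.6%, 99.1%, 98.8% and 98.1% of the 13053 genes tested. For Syk, Pilra and Fcer1g the SD was 0.76, 0.56 and 0.44 log2, larger than that of 96.0%, 92.2% and 86.9% of genes. The SD of Fcgr2b, 0.23 log2, was larger than that of 56.7% of genes, and that of Tyrobp, 0.15 log2, was larger than that of 32.6%. In all 9 genes control replicates 3 and 4 were above control replicates 1 and 2. The share of all genes with that order was not counted, so it is not shown to be particular to these genes. The sum of 12 monocyte and macrophage marker intensities was 2958.7, 11667.8 and 12413.3 in irradiated replicates 1 to 3 and 4692.8, 10936.2, 20720.9 and 16447.1 in control replicates 1 to 4. None of those 12 markers passed the test between groups (adjusted p under 0.05, limma), and none was at 0. Lyz2, the lysozyme gene of that list, was at 8.70, 11.93 and 12.06 log2 in irradiated replicates 1 to 3, against 8.41, 11.65, 12.79 and 12.29 log2 in control replicates 1 to 4. Unlike Lyz2, some markers of the list departed from the sum. Cd163 reached 7.59 (irradiated replicate 2) and 7.58 (irradiated replicate 3), above every control (5.49 to 6.97 log2). Ly6c2 peaked in irradiated replicate 1, at 10.16 log2, with controls between 7.37 and 9.49 log2. Control replicates 3 and 4 had the lower levels of Cd207 given above. The part of such cells in the spread of the Fc receptors was not tested.

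**Figure D2:**
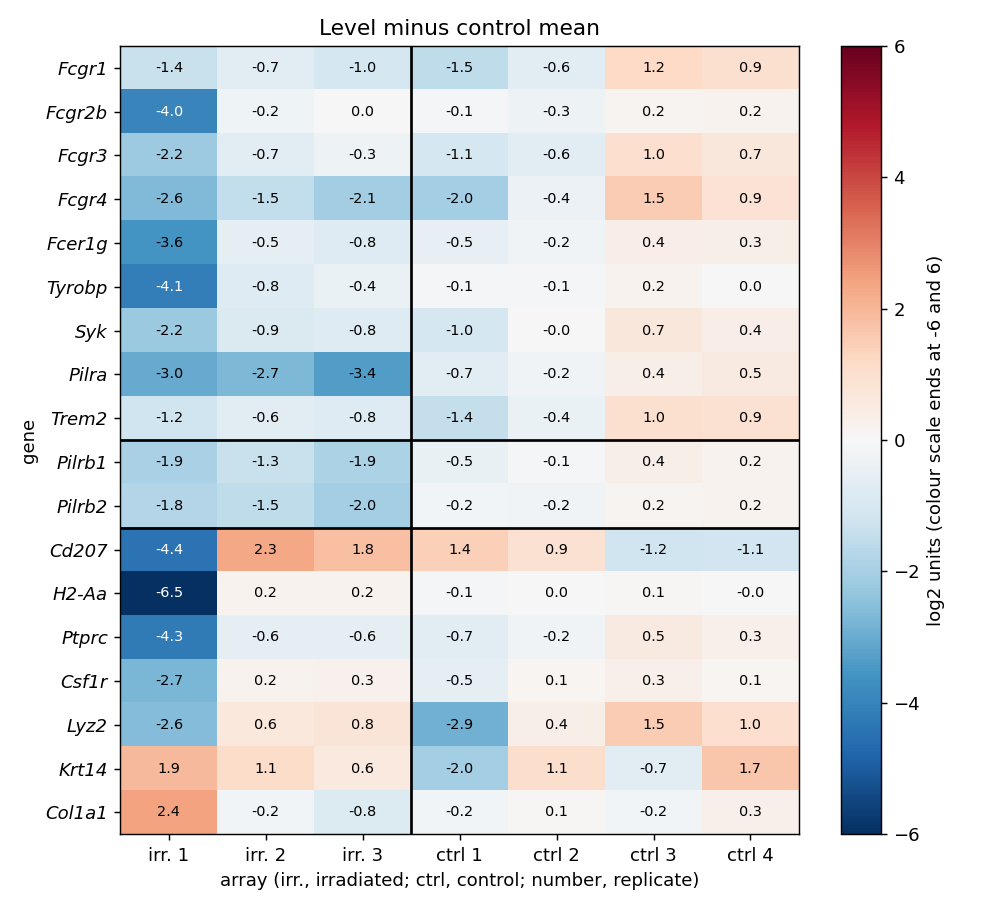
Level of each gene in each array minus its control mean (log2 units, numbers and colour), with irradiated arrays left of the line and controls right of it. From the top are the 9 genes, the related genes Pilrb1 and Pilrb2, and 7 genes of LC and other cells. Pilra, Pilrb1 and Pilrb2 are lower in all 3 irradiated arrays, and all 9 genes are higher in control replicates 3 and 4 than in replicates 1 and 2. The share of all genes with that order of the controls was not counted.

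The adaptor genes and Syk had lower means in irradiated LC. Fcer1g was at 8.32, 11.38 and 11.14 log2 in irradiated replicates 1 to 3, against 11.40, 11.67, 12.29 and 12.24 log2 in control replicates 1 to 4. All irradiated samples lay below all controls, but the gap between irradiated replicate 2 and control replicate 1 was 0.019 log2. The log2 difference was -1.62 (SE 0.71), and -0.64 (SE 0.28) without irradiated replicate 1.

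Tyrobp was at 7.50, 10.84 and 11.24 log2 in irradiated replicates 1 to 3, against 11.51, 11.52, 11.84 and 11.65 log2 in control replicates 1 to 4. Here too all irradiated samples lay below all controls, with a gap of 0.27 log2. The log2 difference was -1.77 (SE 0.81), and -0.59 (SE 0.18) without irradiated replicate 1. That library minus the lowest control was -4.01 log2, and Ptprc, a gene of all leukocytes, was at 5.61 log2 in it, against 9.21 to 10.41 log2 in controls.

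Syk was at 6.81, 8.15 and 8.28 log2 in irradiated replicates 1 to 3, against 7.99, 9.0, 9.73 and 9.41 log2 in control replicates 1 to 4. Irradiated replicates 2 and 3 lay between control replicates 1 and 2, so the groups overlapped through control replicate 1 alone. Irradiated minus control was -1.29 log2 (SE 0.50), and -0.82 (SE 0.45) without irradiated replicate 1.

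Over the 9 genes the median log2 difference was -1.40, and it was -0.69 without irradiated replicate 1, -1.98 without irradiated replicate 2 and -2.05 without irradiated replicate 3. The median over the 13053 genes tested was -0.05 in either comparison, with and without irradiated replicate 1. The difference was negative in 9 of 9 genes, where it was negative in 55.0% of all genes with all arrays and 56.4% without irradiated replicate 1. In 3 of 9 genes, Fcer1g, Tyrobp and Pilra, all irradiated samples lay below all controls, with all arrays and without irradiated replicate 1. The share of all genes with groups apart in that direction was 15.3% with all arrays and 20.3% without irradiated replicate 1. In 0 of 9 genes did all irradiated samples lie above all controls, where the share of all genes was 3.46% with all arrays and 10.2% without irradiated replicate 1. Since the genes were selected with this contrast known, nothing is read from these counts.

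**Figure D3:**
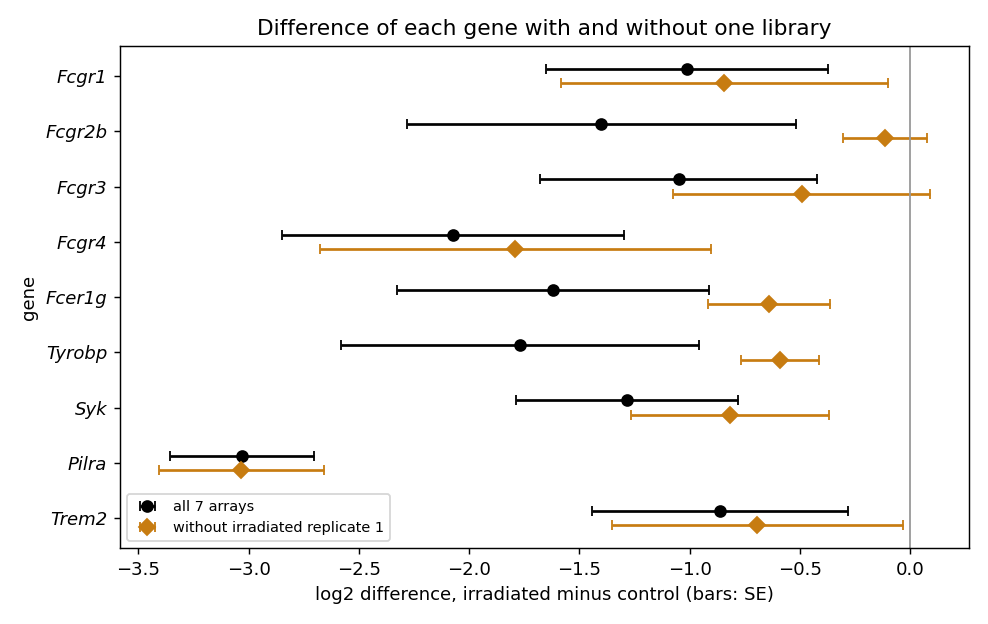
Log2 difference (irradiated minus control, horizontal axis) of each of the 9 genes, with bars for the SE of the fit across all genes. Black circles are all 7 arrays and orange diamonds leave out irradiated replicate 1. Pilra is at -3.03 in both, while Fcgr2b moves to -0.11 and Tyrobp to -0.59.

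The 9 genes were not evenly low in irradiated replicate 1. Relative to the control mean it stood lowest in Fcgr2b (-3.97), Fcer1g (-3.58) and Tyrobp (-4.13), against -1.35 in Fcgr1 and -1.21 in Trem2, which stayed inside the control range. In irradiated replicates 2 and 3 the order differed. Pilra stood at -2.71 and -3.36 and Fcgr4 at -1.49 and -2.09, while Fcgr2b stood at -0.24 and 0.0076. Pilra minus Fcgr2b, each taken relative to its own control mean, was 0.95, -2.47 and -3.36 in irradiated replicates 1 to 3 and lay between -0.59 and 0.34 in controls. Fcgr4 minus Fcgr2b was 1.34, -1.26 and -2.09 in irradiated replicates 1 to 3, and its controls ranged from -1.93 to 1.34, so that range holds all but 1 irradiated value.

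The genes whose pattern was most like each of the 9 were found by the root mean square difference between log2 profiles, each centred on its own mean over the 7 arrays. Nearest to Pilra was Sh2d1b1, an adaptor gene of SLAM-family receptors, at 0.30 log2. It was at 4.55, 5.36 and 4.92 log2 in irradiated replicates 1 to 3 and 7.76, 7.95, 8.14 and 8.26 log2 in control replicates 1 to 4. All its irradiated values were below the limit for dim genes, so it passed the filter through its controls. The search used the same arrays as the contrast, so this likeness is a description only. Nearest to Tyrobp was Laptm5, a lysosomal membrane protein gene of blood cells, at 0.16 log2, and nearest to Fcer1g was Dock2, a gene of leukocyte migration, at 0.19. The tetraspanin gene Cd53 was nearest to Fcgr2b (0.13), and Sirpa, an ITIM receptor gene, was nearest to Syk (0.13). For Fcgr1 it was the Toll-like receptor gene Tlr1 (0.16), for Fcgr3 Gatm, an enzyme gene of creatine synthesis (0.22), and for Fcgr4 the RNA-editing enzyme gene Apobec1 (0.20). The gene model Gm8979 was nearest to Trem2 (0.15). Nearest to the mean profile of all 9 genes were Itgb2, the common beta chain of leukocyte integrins (0.12), then Sirpa (0.16), Milr1 (0.22), Cd48 (0.23) and Ptpn22 (0.24). The profiles of Tyrobp, Fcer1g and Fcgr2b were set mostly by irradiated replicate 1, at -3.37, -2.89 and -3.37 log2 from the mean of each gene. The search was not repeated without that library.

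The other genes of the pathway were taken from 5 lists with 122 genes. Of these, 118 were found on the arrays and 94 passed the filter on dim genes. In the limma fit over all 13053 genes 3 of the 94 fell in irradiated LC and 0 rose (adjusted p under 0.05), where 1.56% of all genes fell and 0.115% rose. At an unadjusted p under 0.05 the counts were 28 lower and 3 higher of 94, where 16.1% of all genes were lower and 3.6% higher. The 3 genes lower at an adjusted p under 0.05 (limma) were Pilrb2, Pilrb1 and Siglece. Without irradiated replicate 1 the counts at that adjusted threshold were 6 lower and 0 higher, where 3.06% of all genes fell and 1.58% rose. They were 0 lower without irradiated replicate 2 or control replicate 4, 1 without irradiated replicate 3, control replicate 2 or control replicate 3, and 5 without control replicate 1. The median log2 difference over the 94 genes was -0.62, and -0.30 without irradiated replicate 1.

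Other activating receptors and ITAM adaptors (22 tested, 2 lower and 20 not past the test) had a median log2 difference of -1.22, and -0.46 without irradiated replicate 1. Both genes that fell encode activating partners of Pilra that signal through Tyrobp. Pilrb1 was at 6.17, 6.76 and 6.22 log2 in irradiated replicates 1 to 3, against 7.64, 7.97, 8.47 and 8.33 log2 in control replicates 1 to 4. It fell by 1.72 log2 (SE 0.25, limma adjusted p = 0.0203, range over the alternatives 0.0023 to 0.197). Pilrb2 was at 5.89, 6.11 and 5.62 log2 in irradiated replicates, against 7.48, 7.43, 7.83 and 7.85 log2 in controls, and fell by 1.78 log2 (SE 0.17, limma adjusted p = 0.00906, range 0.000864 to 0.197). In each of them 3 of 3 irradiated samples lay below all controls, and the difference without irradiated replicate 1 was -1.61 and -1.79. With 1 array left out, Pilrb1 passed only where it was irradiated replicate 1 or control replicate 1. Pilrb2 missed the threshold without irradiated replicate 2 (adjusted p = 0.0739) or control replicate 4 (0.0517), again by limma. The irradiated mean of Pilrb2, 5.87 log2, was under the limit for dim genes, so it passed the filter through its controls. With no filter its adjusted p was 0.0169 (limma). The Pilr genes are related in sequence, so a shared signal between their probe sets was not tested.

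Among receptors named after their values were seen, Clec5a, a lectin that signals through Tyrobp, had a log2 difference of -2.34 (limma adjusted p = 0.0614). Clec4n, the lectin dectin-2 that pairs with the gamma chain, had one of -2.11 (adjusted p = 0.139), and -1.29 without irradiated replicate 1. For the lectin genes Clec4e, Clec4d and Clec7a of the same list the groups overlapped. Their differences were -1.60, -1.10 and -1.84 (limma adjusted p = 0.440, 0.461 and 0.376), and -0.35, -0.23 and -0.34 without irradiated replicate 1. Cd3e, an ITAM chain of the T cell receptor, was at 6.78, 7.30 and 8.71 log2 in irradiated replicates 1 to 3 and 6.67, 6.45, 6.17 and 6.26 log2 in control replicates 1 to 4 (adjusted p = 0.172). The sum of 7 T cell marker intensities was 946.1, 584.5 and 1216 in irradiated replicates 1 to 3, against 395.8 to 479.5 in controls. Of the 3 tested markers of that list 0 passed (limma). Thy1 was at 9.21, 7.29 and 7.63 log2 in irradiated replicates 1 to 3, against 6.82 to 7.63 log2 in controls. Cd3g was at 5.25, 6.57 and 8.46 log2 in them, against 5.05 to 5.63 log2 in controls. The sum thus rested on different markers in irradiated replicates 1 and 3.

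Kinases, adaptors and enzymes that act after ITAM phosphorylation (33 tested) had a median log2 difference of -0.67, and -0.24 without irradiated replicate 1. With all arrays 0 passed the limma test. At an unadjusted p under 0.05 there were 11 lower and 1 higher, where 16.1% of all genes were lower and 3.6% higher. Lat2, a membrane adaptor, and Skap2, an adaptor of integrin signalling, fell without irradiated replicate 1, by 1.04 log2 (SE 0.20) for Lat2 and 0.92 log2 (SE 0.19) for Skap2, with limma adjusted p-values of 0.0347 and 0.0448. With all arrays their differences were -1.43 and -1.39 (adjusted p = 0.0724 and 0.103). Among genes named after their values were seen, the Src-family kinase genes Fgr and Lyn had all irradiated samples below all controls. Their log2 differences were -1.40 for Fgr and -1.71 for Lyn (limma adjusted p = 0.0815 and 0.162), and that of Lyn was -0.97 without irradiated replicate 1. For Fyn and Src, of the same family, the groups overlapped, with differences of -0.40 and 0.28 (limma adjusted p = 0.531 and 0.588). Btk and Plcg2, which act after Syk, had differences of -1.49 and -1.18 (limma adjusted p = 0.0975 and 0.193). Without irradiated replicate 1 these differences were -1.02 and -0.63. Btk lies on the X chromosome, and the part of sex in its difference was not tested. The irradiated mean of Btk, 5.88 log2, was under the limit for dim genes, so it too passed the filter through its controls. Malt1, a protease of the Card9 complex, was at 6.29, 11.36 and 11.24 log2 in irradiated replicates 1 to 3, against 10.21, 10.46, 9.54 and 10.28 log2 in control replicates 1 to 4. Its log2 difference was -0.49 with all arrays and 1.18 without irradiated replicate 1 (adjusted p = 0.826 and 0.0586), so 1 library set its sign.

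ITIM receptors and the phosphatases and adaptors that restrain ITAM signalling (27 tested, 1 lower and 26 not past the test) had a median log2 difference of -0.73, and -0.54 without irradiated replicate 1. Siglece, an inhibitory receptor for sialic acids, was at 6.49, 6.73 and 6.70 log2 in irradiated replicates 1 to 3, against 7.42, 7.48, 7.71 and 7.40 log2 in control replicates 1 to 4. It fell by 0.86 log2 (SE 0.13, limma adjusted p = 0.0268, range 0.00252 to 0.197), with 3 of 3 irradiated samples below all controls. It kept its call without irradiated replicate 1 or control replicate 1 (adjusted p = 0.0313 and 0.0390). Without irradiated replicate 2 or 3 or control replicate 2, 3 or 4 it was not called (adjusted p = 0.118, 0.0631, 0.109, 0.0824 and 0.0891). Ptpn6, a phosphatase recruited by ITIMs, was at 7.02, 7.80 and 8.02 log2 in irradiated replicates 1 to 3 and 8.66, 8.80, 9.01 and 8.78 log2 in control replicates 1 to 4. Its log2 difference was -1.20 (adjusted p = 0.0724), and it fell by 0.90 log2 (SE 0.18, adjusted p = 0.0419) without irradiated replicate 1. For Inpp5d and Ptpn11, other phosphatase genes of the list, the groups overlapped. Their log2 differences were -1.15 and 0.15 (limma adjusted p = 0.359 and 0.732), and that of Inpp5d was -0.26 without irradiated replicate 1. Pirb and Sirpa, named after their values were seen, had differences of -2.19 and -1.43 (limma adjusted p = 0.0614 and 0.165). Without irradiated replicate 1 these differences were -1.75 and -0.97. For Lilrb4a, another receptor gene of the list, the groups overlapped. Its difference was -1.10 (limma adjusted p = 0.456), and -0.18 without irradiated replicate 1.

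**Figure D4:**
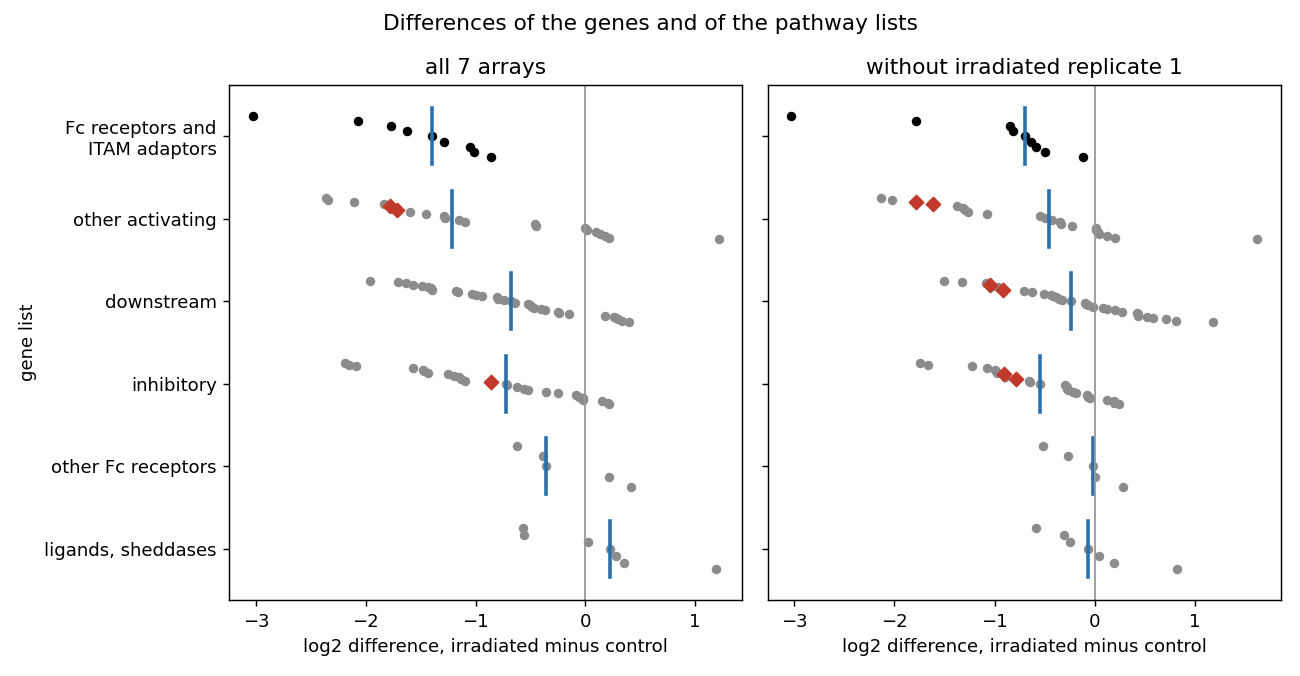
Log2 difference (irradiated minus control) of each gene tested in the 9 selected genes (black) and the 5 pathway lists (grey), with all arrays (left) and without irradiated replicate 1 (right). Red diamonds are list genes past the limma threshold (3 and 6), blue lines are medians, and no test is given for the 9 selected genes. The medians of the activating, downstream and inhibitory lists are below 0 in both panels and closer to 0 in the right one.

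Other Fc receptor genes were mostly dim. Of 14 found, 9 were left out by the filter, and of the 5 tested 0 passed (limma, 0 lower and 0 higher at an unadjusted p under 0.05). Fcgrt, the neonatal Fc receptor that recycles IgG, was at 9.02, 8.45 and 8.80 log2 in irradiated replicates 1 to 3, against 7.79, 8.10, 8.89 and 8.58 log2 in control replicates 1 to 4 (log2 difference 0.42, adjusted p = 0.476). Of 7 ligand and sheddase genes 0 passed (limma, 0 lower and 1 higher at an unadjusted p under 0.05). Apoe, a lipoprotein that Trem2 binds, was at 12.01, 11.64 and 11.87 log2 in irradiated replicates 1 to 3, against 9.48, 11.84, 12.46 and 12.46 log2 in control replicates 1 to 4 (log2 difference 0.28, adjusted p = 0.837, and -0.41 without control replicate 1).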

How the data were processed

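RNA of 7 samples of sorted mouse Langerhans cells was labelled with biotin and hybridised to arrays, per the labels' protocols. The deposited values are intensities on a linear scale, 1 per probe set and array, which the authors made by RMA, per the submitters' processing notes (no version given). The sources used here do not give the array design, its annotation or which arrays were normalised together. Median intensities lay between 80.2 and 88.2, and both deposited tables agreed in 174454 of 174454 values within 1e-09. The number of arrays limits the precision.

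The log2 of each deposited intensity was taken, the probe set with the highest mean was kept for each of 21755 symbols, and symbols whose mean fell in the lowest 40% (under 6.07 log2) were dropped. For the remaining 13053 genes limma 3.58.1 (R 4.3.3) was used, with lmFit and a trended eBayes, irradiated minus control, with Benjamini-Hochberg adjustment over all of them and a threshold of 0.05. The p-values measure only how these samples vary, and that variation may be technical. The fit was tested on simulated data with independent noise and no deviant array, so that test does not cover a library like irradiated replicate 1. Gene roles are background knowledge.

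The 9 genes, the lists and the naming rule were chosen with earlier results of these data known. The rule named the 9 genes, up to 3 list genes past the threshold, up to 3 past it only without irradiated replicate 1, otherwise the list gene with the highest mean, chosen markers, and the genes nearest in profile. List symbols were matched directly or through synonyms of the RefSeq table for GRCm38.p6, and 4 list genes were not matched. Promoter sequences are from RefSeq, build GRCm38.p6, and only the motifs were searched in them. The alternatives were no filter or one of 60%, quantile normalisation, the other table, robust or untrended eBayes, centring on medians, array weights, a pseudocount of 16, averaged probe sets, the replicate number as a block, the controls that cite no earlier record, and each array left out in turn.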

Additional observations from a re-analysis of the deposited data

Results flagged for a closer look

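Among the 4 controls, control replicate 1 lay far from the others in Skap2, with a level of 8.25 log2 where control replicates 2 to 4 were at 8.71, 8.64 and 8.67. This was 1 of 17 genes checked for a control far from the rest, and chance flags about 1 in 20. The irradiated samples were at 6.22, 7.63 and 7.68 log2, all below control replicate 1.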

How the results depend on the processing

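The difference of each of the 9 genes kept its direction under every alternative run, with Fcgr4 not kept when the lowest 60% of genes were left out. Their median log2 difference lay between -2.05 and -0.69 with an array left out and between -1.62 and -0.88 under the other settings. Counts depended on single arrays: with each left out in turn, between 2 and 399 of all genes were lower and between 0 and 206 higher, and between 0 and 6 pathway genes were lower. With all arrays 204 genes were lower and 15 higher. Array weights gave 2645 lower and 831 higher among all genes and 28 lower and 3 higher among pathway genes. Without the filter 130 genes were lower. With control replicates 2 and 3 alone, which cite no record, 1 gene was lower and 0 higher (1563 and 239 at an unadjusted p under 0.05, limma), and 0 pathway genes were lower (26 unadjusted). With the replicate number as a block 0 genes were lower and 0 higher (1620 and 429 at an unadjusted p under 0.05, limma), and 0 pathway genes were lower (28 unadjusted). Pilrb1, Pilrb2 and Siglece were not called in either of these fits (limma adjusted p of 0.150 to 0.197). Same-numbered arrays deviated from their group means with correlations of 0.0209, -0.0545 and 0.168 across genes. Differently numbered arrays had correlations of -0.199 to 0.165. With so few arrays, and irradiated replicate 1 far from the rest, these values cannot decide whether the numbers pair the samples. With quantile normalisation 2 pathway genes were lower, and Siglece was not called (limma adjusted p = 0.0559). The difference of Apoe turned to -0.29 with array weights, -0.31 with control replicates 2 and 3 alone and -0.41 without control replicate 1, and with an array left out it lay between -0.41 and 0.58. That of Malt1 turned to 0.92 with array weights and 1.18 without irradiated replicate 1, in a range of -1.35 to 1.18 with an array left out. The cause was not tested. Signal over background limits the dim genes: Fcgr4 was below the filter's limit of 6.07 log2 in every irradiated sample.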
